A study of Homo sapiens with 60 samples.

Results

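YAP target genes are transcribed when the coactivators YAP and TAZ enter the nucleus and bind DNA through TEAD factors. The Hippo kinases LATS1 and LATS2 phosphorylate YAP and TAZ, which keeps them in the cytoplasm, and stretch, low cell density and an active actin cytoskeleton let them into the nucleus. In liver this pathway is known for its hold on organ size and regeneration. The targets described here were ANKRD1, CCN1, CCN2, AMOTL2, AJUBA, LATS2 and AXL, 7 of the 60675 genes in the deposited count table. CCN1 and CCN2 are also called CYR61 and CTGF. Each was found by its symbol, all 7 passed the filter on low counts, and together they cover a nuclear cofactor, secreted proteins, regulators of the pathway itself and a cell surface receptor. ANKRD1 was chosen by its log2 fold changes in an earlier look at these same data, where it was lower with Citri, and the other genes were gathered with their values known. Values of the 7 genes are therefore given as a description, with no p-values, and the counts of calls support nothing.

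HepG2, an established human hepatocellular carcinoma line, was kept for 24 h with an ethanol extract or with the DMSO vehicle, and its RNA was then sequenced. Coptidis Rhizoma and Bupleuri Radix were given at 280, 56 and 11.2 µg/mL, with 2 and 3 libraries per dose. Aconiti Lateralis Radix Preparata, Citri Unshius Pericarpium and Cimicifugae Rhizoma, each with 3 libraries at a dose, and Zizyphi Fructus, with 2, were given at 500, 100 and 20 µg/mL, as were the formulas Yijung-tang (2 per dose) and Banhasasim-tang (1 per dose). The vehicle had 3 libraries, so that 60 libraries formed 25 groups. The doses are called high, medium and low below. For Coptidis and Bupleuri the high dose was set by growth inhibition, and the other extracts reached the upper limit of the dose rule. All groups share the HepG2 background. The vehicle labels give 0.1% DMSO and the series text gives 2%. For the extract libraries the labels give no DMSO strength. The labels do not say that libraries of a group came from separate cultures, so the spread between them may be technical. Sets of libraries were inferred from the first part of the sample number in each title. They are vehicle alone, Coptidis with Zizyphi, Citri with Cimicifugae, Bupleuri with Aconiti, and Yijung-tang with Banhasasim-tang. All titles, vehicle included, carry the same batch name, BatchD, so these sets are not labelled batches. For Coptidis and Zizyphi a second label reads BatchC instead, and which name holds is not known. Set and treatment cannot be told apart against vehicle, whereas high against low dose of an extract stays within a set. Every comparison with vehicle uses the same 3 vehicle libraries.

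Library totals ran from 18015555 to 29549531 counts. Levels are CPM, a gene's count relative to its library's total after TMM scaling. The marker levels in this paragraph are CPM by library total, without that scaling. The hepatocyte markers were detected in every library, with a summed level of 26690 to 50200 CPM, and 26690 to 27650 CPM at the Coptidis high dose against 45710 to 46180 CPM in vehicle. Of the defining markers of other cells, DCN, KDR and PTPRC had no count, while LYZ reached 1646 CPM, CD68 74.8, ACTA2 58.5 and PDGFRB 15.7 CPM in their highest libraries. The 7 fibroblast markers summed to 37.4 to 65.8 CPM, with 61.6 to 65.8 CPM at the Coptidis high dose against 60.3 to 63.3 CPM in vehicle, and the 4 endothelial markers to 2.74 to 6.94 CPM. The 5 leukocyte markers, mainly LYZ, summed to 534 to 1695 CPM, and to 605 to 648 CPM at the Coptidis high dose against 1387 to 1415 CPM in vehicle. The part of these differences in the results was not tested. In bulk RNA, fewer cells with a transcript and less of it per cell cannot be told apart.

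A pair of libraries stood apart from the rest. In the Banhasasim-tang low-dose library, mitochondrial rRNA made up 0.485% of counts, against 2.47% to 2.61% in vehicle. It was 5.41% to 11.8% in the Coptidis libraries, and 8.01% and 11.8% at the Banhasasim-tang medium and high doses. In replicate 3 of the Bupleuri low dose, the difference of each gene from vehicle went with exon length, with a Spearman rho of −0.435 over 16568 genes, against −0.199 to 0.115 in the other 58 libraries. In that library LATS2 stood at 24.7 CPM, against 41.5 and 40.5 CPM in the other Bupleuri low-dose libraries. Results that rest on these libraries are given with and without them.

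Promoters were searched for the TEAD core, GGAATG, the short sequence that TEAD factors recognize. The search covered both strands from 250 bases before to 50 bases after each RefSeq transcript start (GRCh38.p14). The table held 6 of the 7 genes. Each of the 6 had a match in at least 1 window, where 16.7% of all 27305 genes had a match. A gene with more windows has more chances of a match. The windows upstream of ANKRD1 and CCN2 are printed because these genes had the most matches and differed in direction in 3 extracts. The sequences run to the base before the start, both lie on the minus strand, and capitals mark the TEAD core. The ANKRD1 window is chr10:90921088-90921337 and the CCN2 window is chr6:131951373-131951622.
ANKRD1: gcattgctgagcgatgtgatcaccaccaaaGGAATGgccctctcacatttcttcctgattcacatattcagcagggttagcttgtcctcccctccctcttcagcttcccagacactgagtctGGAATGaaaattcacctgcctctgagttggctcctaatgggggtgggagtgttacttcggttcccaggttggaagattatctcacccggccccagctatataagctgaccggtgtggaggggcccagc
CCN2: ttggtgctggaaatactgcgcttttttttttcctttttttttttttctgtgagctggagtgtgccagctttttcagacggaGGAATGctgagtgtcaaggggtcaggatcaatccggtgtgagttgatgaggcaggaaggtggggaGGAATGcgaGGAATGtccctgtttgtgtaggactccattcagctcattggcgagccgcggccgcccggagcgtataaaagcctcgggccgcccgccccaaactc

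With the start base as position 1 and no position 0, the 3 cores of CCN2 began at −169, −104 and −95. Of all 35116 windows, 0.128% had 3 or more. The 2 cores of ANKRD1 began at −220 and −128, and 1.37% of windows had 2 or more. AJUBA (at −59 from the start at the lower coordinate) and LATS2 (at 10) had 1 core each on the gene's strand. AMOTL2 (at −69 from the start at the lower coordinate) and AXL (at −212 from the start at the higher coordinate) had 1 each on the other strand. The other start of AJUBA, AMOTL2 and AXL, upstream in each, had no match. The cores of AJUBA, LATS2, AMOTL2 and AXL are shown as 30-base stretches for comparison of their flanks. They run in the gene's direction, with the core or its complement in capitals.
AJUBA, chr14:22976884-22976913, minus strand: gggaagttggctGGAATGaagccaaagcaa
LATS2, chr13:21061560-21061589, minus strand: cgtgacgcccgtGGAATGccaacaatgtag
AMOTL2, chr3:134374499-134374528, minus strand: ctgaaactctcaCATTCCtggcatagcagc
AXL, chr19:41226531-41226560, plus strand: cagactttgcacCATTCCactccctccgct

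The AP-1 motif TGANTCA, which does not overlap the core, was found in the ANKRD1 window, at −195 between the 2 cores, and in no window of the other 5 genes, where 9.37% of all genes had it. A match describes letters and is not a measured binding site.

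**Figure D1:**
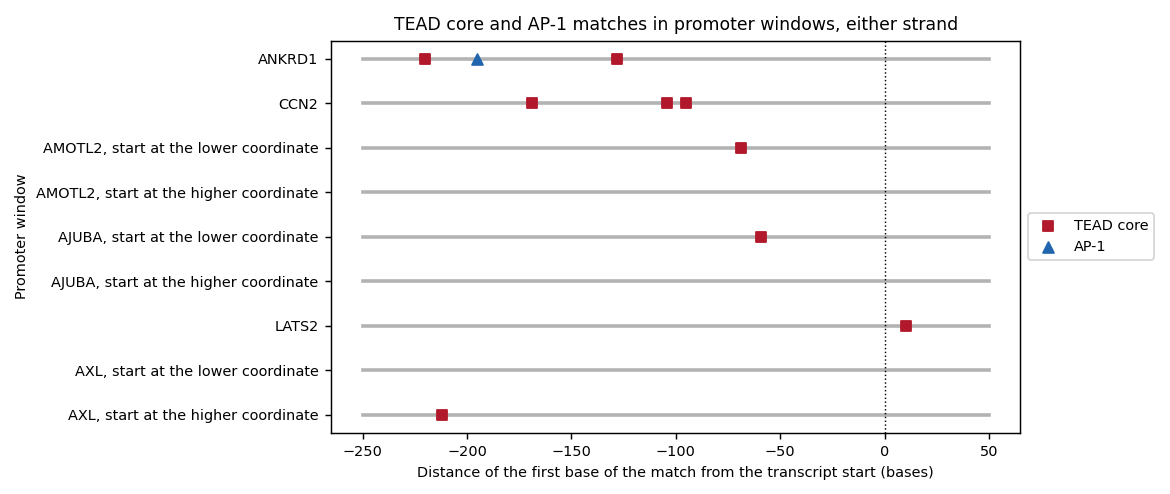
Matches to the TEAD core (squares) and the AP-1 motif (triangles) on either strand in each RefSeq promoter window, by distance from the transcript start in bases (dotted line). CCN2 holds 3 cores, ANKRD1 holds 2 with an AP-1 match between them, and the 4 other genes hold 1 each in 1 of their windows.

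In vehicle the levels per kilobase of exon ran in the order CCN2 (73.3 CPM per kb), AJUBA (33.7), ANKRD1 (22.1), LATS2 (6.69), CCN1 (5.82), AMOTL2 (4.08) and AXL (1.19). Over the 24 groups other than the Banhasasim-tang low dose, the highest group mean was 32.8 times the lowest for AXL and 9.82 times for CCN1. It was 3.15 times for CCN2, 3.12 times for ANKRD1, 1.88 times for AMOTL2, 1.77 times for AJUBA and 1.5 times for LATS2. Coptidis held the highest of these groups for ANKRD1 at the medium dose, and for CCN1, AJUBA, LATS2 and AXL at the high dose. For AMOTL2 the Coptidis high and Zizyphi medium doses were level at 26.8 CPM, and by library total without TMM scaling they stood at 25 and 26.98 CPM, with Aconiti low at 27.02 CPM. With the Banhasasim-tang low dose included, ANKRD1 varied 4.90-fold, CCN2 3.37-fold, AMOTL2 3.61-fold, AJUBA 2.07-fold and LATS2 1.61-fold, and CCN1 and AXL were the same.

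**Figure D2:**
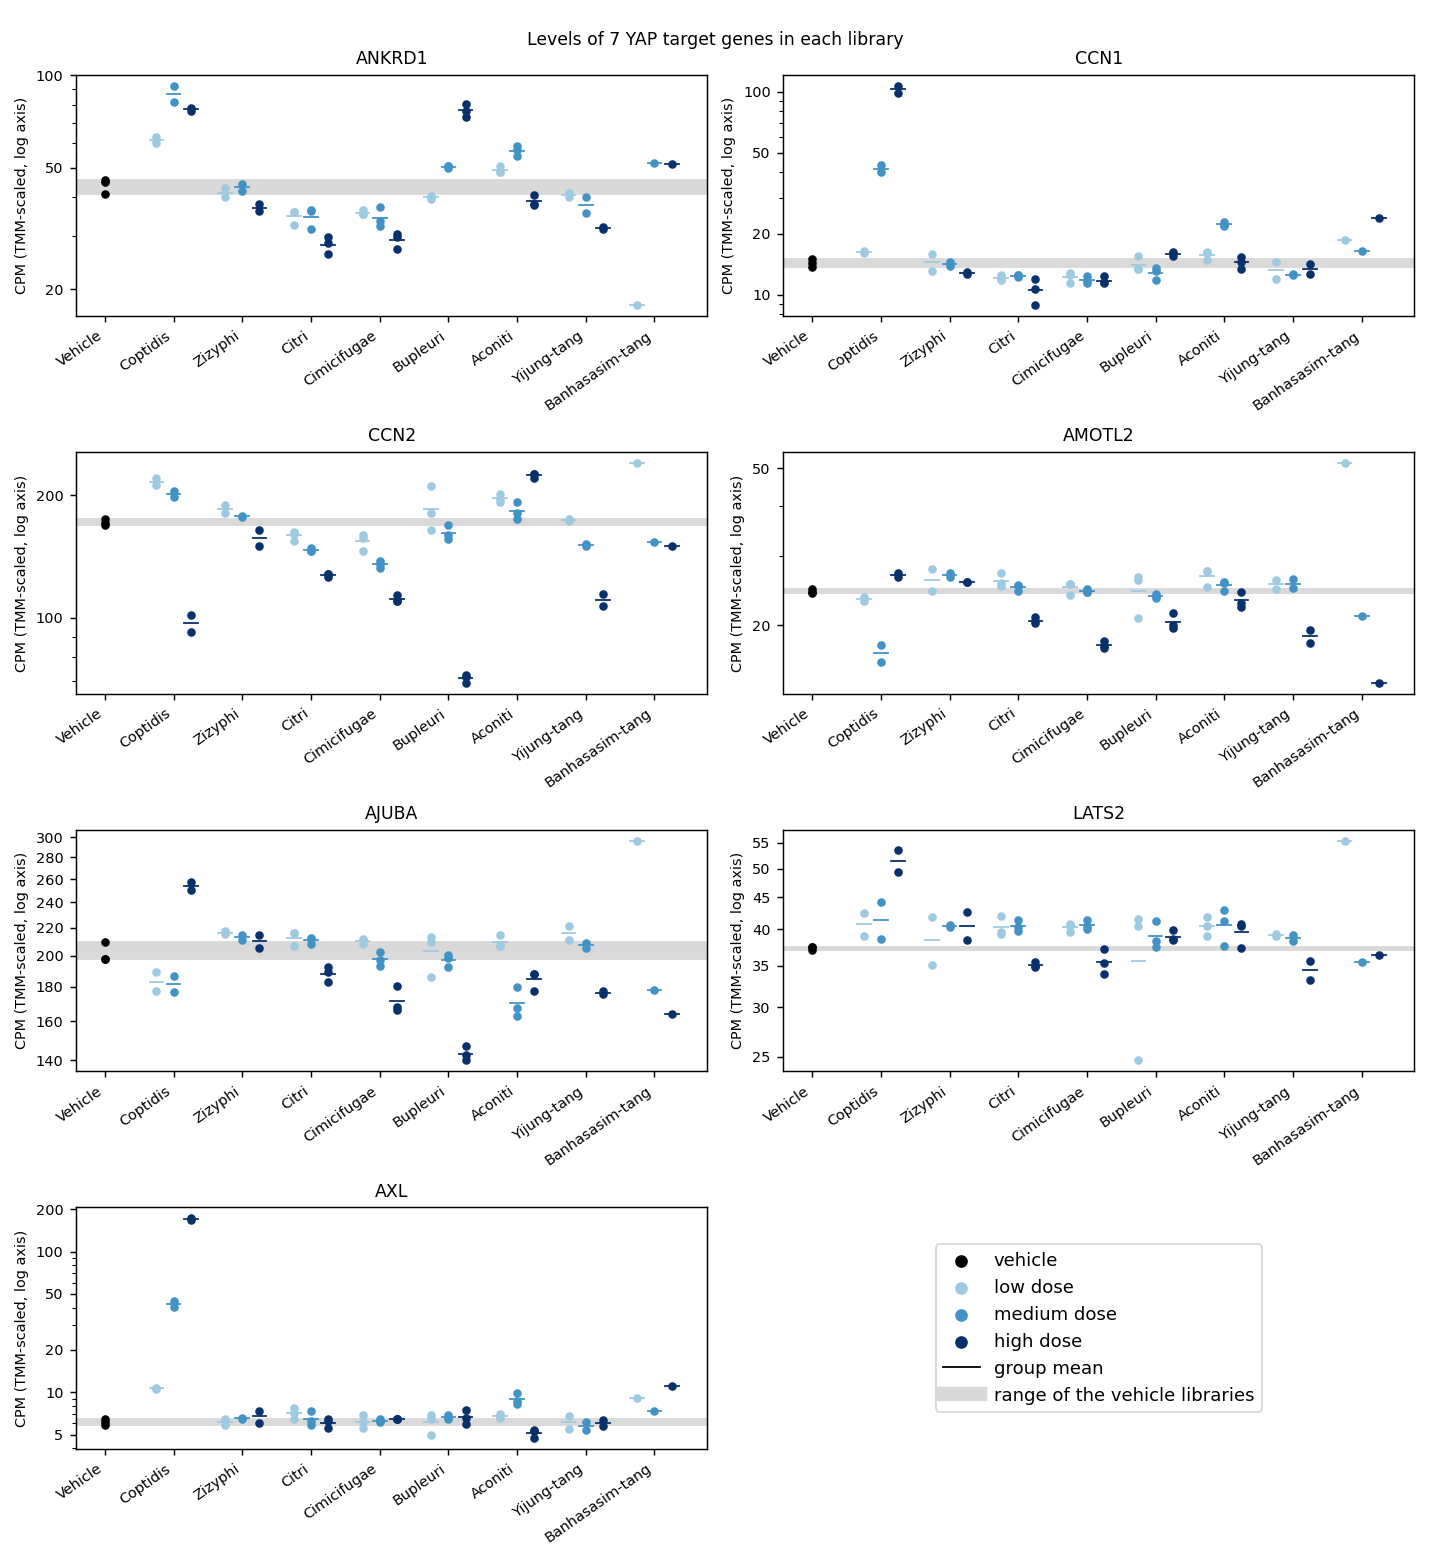
TMM-scaled CPM on a log axis of each of the 7 genes in each library, by extract, with low, medium and high dose from left to right, group means as short lines and the range of the 3 vehicle libraries as a grey band. CCN1 and AXL leave the band most in Coptidis, ANKRD1 lies above it in Coptidis and at the Bupleuri high dose and below it in Citri and Cimicifugae, and CCN2 reaches its lowest values at the Bupleuri high dose.

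ANKRD1 (ENSG00000148677, chr10:90912096-90921276, minus strand) encodes an ankyrin repeat protein that acts as a nuclear cofactor and, in muscle, binds the titin filament. It went up with some extracts and down with others. The vehicle libraries had 45.5, 44.9 and 40.9 CPM. Coptidis libraries had 63.1 and 60.2 CPM at the low dose, 81.7 and 92.7 CPM at the medium dose, and 78.5 and 76.6 CPM at the high dose. All 6 lay above each vehicle library, and the medium dose (87.2 ± 7.73 CPM, SD, n = 2) was 2.00 times the vehicle mean (43.8 ± 2.49 CPM, SD, n = 3). Against vehicle, log2 fold changes were 0.50 ± 0.07, 1.00 ± 0.06 and 0.83 ± 0.07 (SE) in order of dose.

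With Bupleuri, ANKRD1 depended on the dose. It stood at 39.6, 40.2 and 40.5 CPM at the low dose, 50.6, 49.9 and 50.5 CPM at the medium dose, and 80.8, 76.6 and 73.1 CPM at the high dose. The low-dose libraries lay just under the vehicle range and the others above it, with log2 fold changes of −0.13, 0.20 and 0.81 (SE 0.06 each). With Aconiti the high dose broke the order. The low dose gave 48.4, 48.4 and 50.5 CPM, the medium dose 58.6, 54.5 and 57.3 CPM, and the high dose 40.8, 37.6 and 38.1 CPM. The medium dose lay above each vehicle library and the high dose below each, with log2 fold changes against vehicle of 0.38 ± 0.06 and −0.17 ± 0.06.

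ANKRD1 was lower with Citri, Cimicifugae and Yijung-tang. Citri libraries had 32.5, 35.9 and 35.7 CPM at the low dose, 35.95, 36.3 and 31.5 CPM at the medium dose, and 28.3, 29.7 and 26.0 CPM at the high dose. Cimicifugae libraries had 36.2, 35.3 and 35.2 CPM, then 37.2, 32.1 and 33.4 CPM, then 30.4, 29.6 and 27.2 CPM. All 18 of these libraries lay below the vehicle range. At the high dose the log2 fold change was −0.64 ± 0.06 for Citri and −0.59 ± 0.06 for Cimicifugae. Yijung-tang had 40.0 and 41.3 CPM, then 35.6 and 40.0 CPM, then 31.9 and 31.6 CPM, and its high dose gave −0.46 ± 0.07. Zizyphi lay within or just below the vehicle range at the low and medium doses, at 39.9 and 42.8 CPM, then 44.2 and 42.0 CPM. Its high dose had 36.1 and 38.0 CPM, below the vehicle range, at −0.25 ± 0.07.

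Ordered by group mean, ANKRD1 was highest at the Coptidis medium dose, then the Coptidis high dose (77.6 CPM) and the Bupleuri high dose (76.8 CPM), whose libraries overlapped each other. At the low end the Citri (28 CPM) and Cimicifugae (29.1 CPM) high doses overlapped, and only the Banhasasim-tang low-dose library, at 17.8 CPM, lay below them. Over the 25 groups, 14 of the 24 pairs of neighbours in the order overlapped.

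CCN1 (ENSG00000142871, chr1:85580761-85583962, plus strand) and CCN2 (ENSG00000118523, chr6:131948176-131951373, minus strand) encode secreted matricellular proteins that bind integrins. Both are long-used readouts of YAP. In these cells they moved apart at the Coptidis high dose, and both were lower at the Citri and Cimicifugae high doses. CCN1 had 13.6, 14.3 and 15.0 CPM in vehicle. With Coptidis it had 16.4 and 16.0 CPM at the low dose, 43.6 and 40.1 CPM at the medium dose, and 99.1 and 107 CPM at the high dose. Each step lay above the one before, and the high dose (103 ± 5.84 CPM, SD, n = 2) was 7.24 times vehicle (14.3 ± 0.66 CPM, SD, n = 3), a log2 fold change of 2.86 ± 0.08.

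Among replicated groups outside Coptidis, CCN1 was highest at the Aconiti medium dose, with 21.7, 22.9 and 22.1 CPM, against 14.9, 16.1 and 16.2 CPM at the low dose and 15.4, 14.5 and 13.4 CPM at the high dose. The Aconiti medium dose was 1.56 times vehicle (log2 fold change 0.64 ± 0.08), and its libraries did not overlap those of the other Aconiti doses. Citri high-dose libraries had the lowest CCN1, at 8.89, 10.7 and 11.9 CPM (−0.45 ± 0.08). Cimicifugae stood at 11.4 to 12.7 CPM across its 9 libraries, below the vehicle range. In the order of group means 19 of 24 neighbours overlapped, and the groups that stood clear at the top were the Coptidis high and medium doses, the Banhasasim-tang high dose (23.9 CPM, 1 library), the Aconiti medium dose and the Banhasasim-tang low dose (18.6 CPM, 1 library).

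CCN2 had 171, 175 and 169 CPM in vehicle. Bupleuri left it at 165, 181 and 210 CPM at the low dose and 156, 169 and 160 CPM at the medium dose, and at 72.5, 71.8 and 69.3 CPM at the high dose. The high dose (71.2 ± 1.65 CPM, SD, n = 3) was the lowest group of the 25, at a log2 fold change of −1.27 ± 0.05 from vehicle (172 ± 3.27 CPM, SD, n = 3). The highest of the low-dose values, 210 CPM, was that of replicate 3, which stood apart. Against the low dose the change was −1.38 ± 0.05 with that library and −1.28 without it.

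With Coptidis, CCN2 was higher at the lower doses and lower at the high dose. Its libraries had 220 and 212 CPM at the low dose, 205 and 198 CPM at the medium dose, and 92.1 and 102 CPM at the high dose. The first 2 doses lay above the vehicle range and the high dose below it, with log2 fold changes against vehicle of 0.34 ± 0.06, 0.24 ± 0.06 and −0.82 ± 0.06. At the high dose CCN2 was therefore lower while CCN1 was higher in the same libraries.

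With Citri, Cimicifugae and Yijung-tang, CCN2 was lowest at the high dose. Cimicifugae gave 157, 146 and 160 CPM at the low dose, 133, 138 and 135 CPM at the medium dose, and 110, 114 and 110 CPM at the high dose. Citri gave 161, 163 and 154 CPM, then 146, 146 and 149 CPM, then 128, 126 and 129 CPM. Yijung-tang gave 173 and 175 CPM, then 152 and 151 CPM, then 107 and 115 CPM. In each of these extracts no high-dose library overlapped a medium-dose library, and log2 fold changes at the high dose were −0.63 ± 0.05 for Cimicifugae, −0.43 ± 0.05 for Citri and −0.63 ± 0.06 for Yijung-tang. Aconiti went the other way, with 193, 195 and 202 CPM at the low dose, 181, 175 and 193 CPM at the medium dose, and 221, 226 and 226 CPM at the high dose (0.39 ± 0.05). Zizyphi had 189 and 181 CPM, then 178 and 177 CPM, then 164 and 150 CPM.

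**Figure D3:**
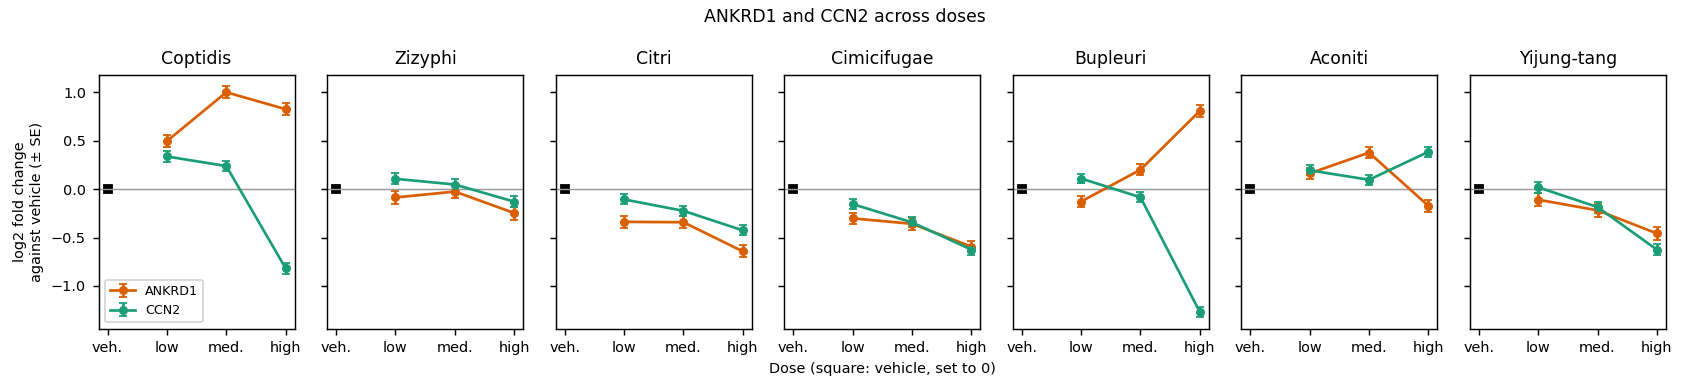
Log2 fold change against vehicle of ANKRD1 and CCN2 at the low, medium and high dose of the 7 extracts with replicates, with SE as bars and vehicle set to 0. At the high dose the genes lie on opposite sides of 0 in Coptidis, Bupleuri and Aconiti, and both lie below it in Zizyphi, Citri, Cimicifugae and Yijung-tang.

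ANKRD1 and CCN2 differed in direction at the high dose in 3 extracts. ANKRD1 was higher and CCN2 lower with Coptidis (0.83 and −0.82) and with Bupleuri (0.81 and −1.27), and ANKRD1 was lower and CCN2 higher with Aconiti (−0.17 and 0.39). The Aconiti change of ANKRD1 was called with all libraries and not without vehicle replicate 1 or 2, Aconiti high replicate 2 or 3, or the filter, at −0.14 to −0.18. With Citri (−0.64 and −0.43), Cimicifugae (−0.59 and −0.63) and Yijung-tang (−0.46 and −0.63) both were lower. Within sets, high against low dose gave 0.33 ± 0.07 for ANKRD1 and −1.16 ± 0.06 for CCN2 in Coptidis, 0.94 ± 0.06 and −1.38 ± 0.05 in Bupleuri, and −0.34 ± 0.06 and 0.19 ± 0.05 in Aconiti. The opposite signs at the high dose were thus also present where vehicle was not used.

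AMOTL2, AJUBA and LATS2 encode regulators of YAP that are themselves YAP targets. AMOTL2 (ENSG00000114019, chr3:134355874-134375479, minus strand) is an angiomotin that binds YAP at cell junctions and the actin cytoskeleton. Cimicifugae high-dose libraries had 18.2, 17.5 and 17.8 CPM, Yijung-tang 18.0 and 19.4 CPM, Citri 20.2, 20.9 and 20.5 CPM, and Bupleuri 19.6, 21.5 and 20.1 CPM, against 24.3, 24.7 and 24.2 CPM in vehicle. All of these lay below the vehicle range, at log2 fold changes of −0.46, −0.38, −0.25 and −0.26 (SE 0.06 to 0.07). With Coptidis the medium dose was the low one, at 17.8 and 16.1 CPM, against 23.0 and 23.6 CPM at the low dose and 27.2 and 26.5 CPM at the high dose.

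AJUBA (ENSG00000129474, chr14:22971174-22982642, minus strand) is a LIM domain protein that binds LATS kinases and restrains them. The Bupleuri high dose was the lowest group, with 143, 147 and 140 CPM (143 ± 3.43, SD, n = 3), against 198, 198 and 209 CPM in vehicle, at a log2 fold change of −0.50 ± 0.04. Coptidis gave 177 and 189 CPM at the low dose, 177 and 187 CPM at the medium dose, and 251 and 257 CPM at the high dose. The lower doses lay below the vehicle range and the high dose above it (0.34 ± 0.05). Aconiti was lowest at the medium dose, with 168, 180 and 163 CPM (−0.24).

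LATS2 (ENSG00000150457, chr13:20973032-21061547, minus strand) is the Hippo kinase that phosphorylates YAP. It varied least of the 7. Coptidis high-dose libraries had 49.4 and 53.7 CPM, against 37.4, 37.1 and 37.6 CPM in vehicle, 1.38 times as much (log2 fold change 0.47 ± 0.10), with no overlap. In the other 20 replicated groups the log2 fold change lay between −0.11 and 0.16. For the Bupleuri low dose it was −0.07 with replicate 3 and 0.14 without it.

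AXL (ENSG00000167601, chr19:41219203-41261766, plus strand) is a receptor tyrosine kinase whose ligand is GAS6. It was the least abundant of the 7 in vehicle and varied most. The vehicle libraries had 6.12, 5.89 and 6.46 CPM. With Coptidis it had 10.8 and 10.6 CPM at the low dose, 44.5 and 40.5 CPM at the medium dose, and 167 and 172 CPM at the high dose. Each dose lay clear of the one below, and the high dose (169 ± 3.82 CPM, SD, n = 2) was 27.5 times vehicle (6.16 ± 0.28 CPM, SD, n = 3). The Aconiti medium dose came next among the replicated groups outside Coptidis, with 9.87, 8.63 and 8.29 CPM (log2 fold change 0.54 ± 0.10), against 5.33, 5.40 and 4.73 CPM at the Aconiti high dose. In the remaining replicated groups AXL stood between 5.00 and 7.73 CPM, and 18 of the 24 neighbours in the order of group means overlapped.

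**Figure D4:**
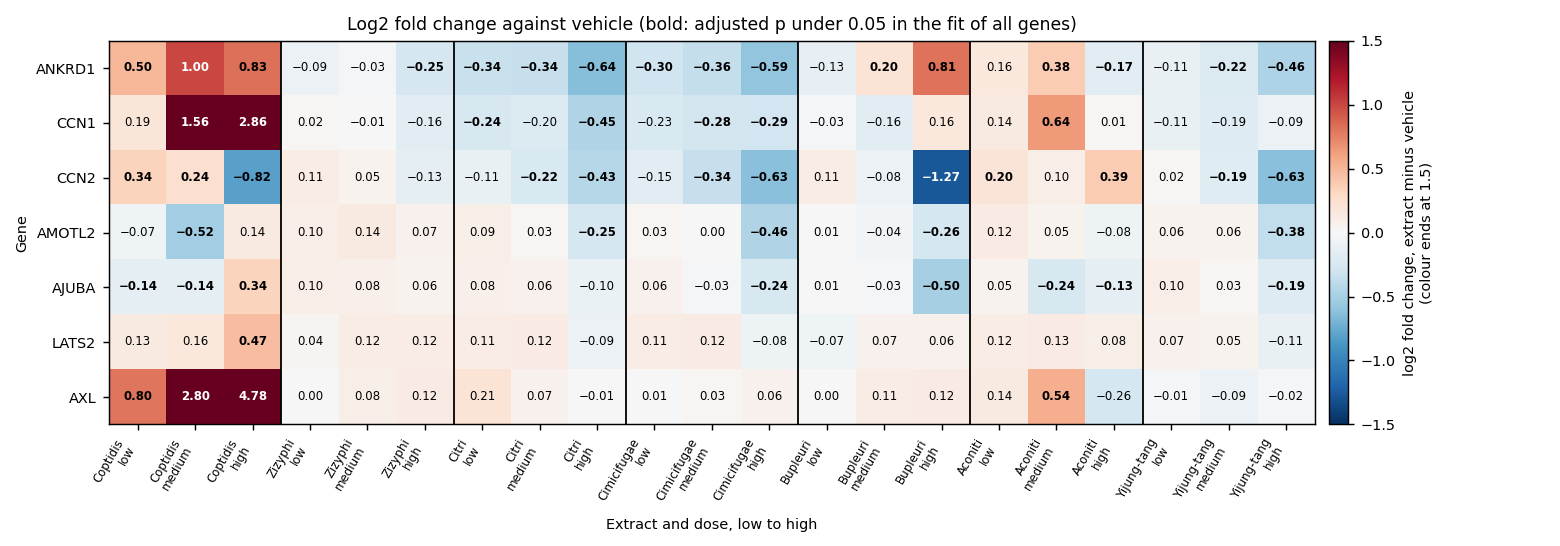
Log2 fold change of each of the 7 genes (rows) against vehicle for each extract and dose (columns, low to high within an extract), red for higher and blue for lower, with bold numbers for genes called in the fit over all genes. Coptidis reaches 4.78 for AXL and 2.86 for CCN1, the Bupleuri high dose holds the lowest value (−1.27, CCN2), and the high doses of Citri and Yijung-tang hold no positive value.

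A gene was called where its adjusted p in edgeR's quasi-likelihood test, over 16675 tested genes, was under 0.05. Against vehicle, Coptidis had 4, 6 and 6 of the 7 genes called at low, medium and high dose, where 33.2%, 50.7% and 67.5% of all tested genes were called. Without replicate 3 of the Bupleuri low dose in the shared fit, the medium and high doses had 7 each, and 56.1% and 70.7% of all genes were called. Citri had 2, 2 and 4 called (15.9%, 10.5% and 14.2% of all genes), Cimicifugae 1, 3 and 5 (6.11%, 10.7% and 22.2%), and Yijung-tang 0, 2 and 4 (1.69%, 6.24% and 17.3%). Bupleuri had 0, 1 and 4 (22.3%, 10.9% and 38.9%), with 12.3% of all genes at the low dose without replicate 3. Aconiti had 1, 4 and 3 (9.89%, 20.9% and 23.2%), and Zizyphi had 0, 0 and 1 (2.80%, 1.93% and 3.63%). Where edgeR called 0, DESeq2 also called 0, and 2 genes at the Bupleuri low dose and 1 each at the Yijung-tang low and Zizyphi low and medium doses had an unadjusted p under 0.05. Leaving out 1 library moved 6 of these counts by over 1.5 times: they became 1 to 3 for Aconiti high, 1 for Citri low and 0 to 1 for Zizyphi high, Bupleuri medium, Bupleuri low and Yijung-tang medium. The shares over all genes were not recorded for the fits without 1 library. Since the genes were chosen with these contrasts known, nothing is read from the counts.

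The median log2 fold change over the 7 genes was 0.47 at the Coptidis high dose, with 5 called higher (34.5% of all genes) and 1 lower (33.0%), against a median of 0.00 over all tested genes. At the high dose it was −0.25 for Citri, with 4 called lower (6.51% of all genes) and 0 higher (7.73%). For Cimicifugae it was −0.29, with 5 lower (10.0%) and 0 higher (12.1%), and for Yijung-tang −0.19, with 4 lower (7.84%) and 0 higher (9.50%). The medians over all tested genes lay between −0.01 and 0.00 in these 3 comparisons. For Bupleuri it was 0.06, with 1 higher (19.9%) and 3 lower (19.1%), and for Aconiti −0.08, with 1 higher (11.2%) and 2 lower (12.0%). For Zizyphi it was 0.06, with 0 higher (2.07%) and 1 lower (1.57%), which was ANKRD1. Between high and low dose, 7 of the 7 were called with Coptidis (60.2% of all genes), 4 with Citri (0.780%), 4 with Cimicifugae (7.14%), 4 with Bupleuri (40.2%), 5 with Aconiti (14.6%), 4 with Yijung-tang (7.29%) and 0 with Zizyphi (0.00600%), where 2 had an unadjusted p under 0.05 and DESeq2 called 0. The Coptidis count was 6 whichever library of the compared groups was left out, with the share over all genes not recorded. The 4 genes called in Citri were ANKRD1, CCN2, AMOTL2 and AJUBA, each called lower at the high dose, where 0.528% of all genes were called lower. These 4 were also those called lower in Cimicifugae (2.73% of all genes) and in Yijung-tang (3.32%). With the replicate number as a block, CCN1 was called too in Bupleuri (0.19), making 5, where 40.6% of all genes were called. Without the Bupleuri library the counts were 5 each for Citri, Cimicifugae and Bupleuri, and 1 for Zizyphi, where 2.14%, 12.7%, 35.1% and 0.018% of all genes were called.

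Citri and Cimicifugae share a set and were compared at the same 500 µg/mL. Of the 7 genes 3 were called lower with Cimicifugae than with Citri, where 4.07% of all genes were called and 1.19% were called lower. CCN2 had 110, 114 and 110 CPM with Cimicifugae and 128, 126 and 129 CPM with Citri (−0.20 ± 0.05), with no overlap. AMOTL2 was lower by a like amount (−0.21 ± 0.06) and AJUBA by less (−0.14 ± 0.04). ANKRD1 overlapped between the extracts and differed by 0.05 ± 0.06. With the replicate number as a block the same count of 3 was called (4.26% of all genes). Without any 1 of the 6 libraries 0 to 1 were called, with the share over all genes not recorded. Coptidis at 280 µg/mL and Zizyphi at 500 µg/mL share a set but not a dose. Side by side, AXL had 167 and 172 CPM with Coptidis and 6.09 and 7.41 CPM with Zizyphi, CCN1 had 99.1 and 107 CPM against 13.0 and 12.7 CPM, and 6 of the 7 genes were called (64.4% of all genes). Bupleuri at 280 µg/mL and Aconiti at 500 µg/mL had ANKRD1 at 73.1 to 80.8 CPM and 37.6 to 40.8 CPM, and CCN2 at 69.3 to 72.5 CPM and 221 to 226 CPM, with 5 of the 7 called (32.6% of all genes).

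Banhasasim-tang had 1 library per dose, so its values have no replicate check. From low to high dose the log2 ratio to the vehicle mean was −1.29, 0.24 and 0.24 for ANKRD1, 0.38, 0.20 and 0.74 for CCN1, and 0.57, 0.27 and 0.85 for AXL. It was 0.48, −0.16 and −0.19 for CCN2, 1.076, −0.21 and −0.77 for AMOTL2, 0.56, −0.18 and −0.30 for AJUBA, and 0.57, −0.08 and −0.04 for LATS2. The low-dose library, which stood apart, had the highest CCN2 (239.9 CPM), AMOTL2 (51.5 CPM), AJUBA (296 CPM) and LATS2 (55.4 CPM) group values and the lowest ANKRD1 of the 25 groups. At the high dose AMOTL2, at 14.3 CPM, was the lowest of the 25 groups.

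Other YAP and TAZ targets were read from a list of 25, of which 22 were tested. The counts of each list stand against the shares called over all genes at the high dose, 67.5% for Coptidis, 38.9% for Bupleuri, 23.2% for Aconiti, 22.2% for Cimicifugae, 17.3% for Yijung-tang, 14.2% for Citri and 3.63% for Zizyphi. At the high dose 15 were called higher and 3 lower with Coptidis, with a median log2 fold change of 0.92, and 81.8% of the list was called. MYOF, a membrane repair protein, averaged 84.4 ± 2.24 CPM with Coptidis and 1.72 ± 0.17 CPM in vehicle (SD, n = 2 and 3, edgeR adjusted p = 4.15e-32), and IGFBP3, a binding protein of insulin-like growth factors, 30.4 and 0.262 CPM (edgeR adjusted p = 2.43e-25). Bupleuri had 8 higher and 5 lower, with AREG, an EGF receptor ligand, at 14.4 ± 1.00 CPM with Bupleuri against 6.16 ± 0.80 CPM in vehicle (edgeR adjusted p = 9.39e-11).

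Cimicifugae had 5 of these targets higher and 5 lower, Citri 2 and 4, Yijung-tang 4 and 2, Aconiti 1 and 5, and Zizyphi 0 and 0 with edgeR. For Zizyphi, 3 had an unadjusted p under 0.05 and DESeq2 called 0. In percent, 59.1% of the list was called with Bupleuri, 45.5% with Cimicifugae and 27.3% each with Citri, Yijung-tang and Aconiti. Without the Bupleuri library, 13 were called with Yijung-tang in either direction in place of 6, and 1 with Zizyphi in place of 0. In that fit 24.8% and 10.3% of all genes were called with these extracts. MYOF rose 2.38-fold with Cimicifugae (edgeR adjusted p = 5.3e-07) and 2.76-fold with Yijung-tang (edgeR adjusted p = 1.43e-07), extracts in which ANKRD1 and CCN2 were lower. EDN1, the vasoconstrictor endothelin 1, fell at low levels in 5 extracts, with 0.492 CPM for Citri, 0.494 for Cimicifugae, 0.414 for Bupleuri, 0.509 for Aconiti and 0.439 for Yijung-tang, against 1.37 CPM in vehicle (edgeR adjusted p from 2.28e-06 to 0.000209). THBS1, a matricellular protein, fell with Citri to 222 ± 6.56 CPM, against 267 ± 2.03 CPM in vehicle (edgeR adjusted p = 0.00967).

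The coactivators and their DNA-binding partners changed most with Coptidis, where all 8 tested of 9 listed were called higher, with a median of 0.59. YAP1 averaged 266 ± 1.12 CPM with Coptidis and 183 ± 3.04 CPM in vehicle (log2 fold change 0.54 ± 0.06, edgeR adjusted p = 1.81e-10). WWTR1, which encodes TAZ, averaged 162 and 119 CPM (edgeR adjusted p = 1.39e-11), and TEAD1 137 and 84.9 CPM (edgeR adjusted p = 0.000122). VGLL3, a TEAD cofactor, averaged 1.93 and 0.200 CPM (edgeR adjusted p = 1.99e-08). Of the 8, Bupleuri had 3 called higher and 1 lower, Aconiti 2 and 2, Yijung-tang 1 and 1, Cimicifugae 1 and 0, and Citri and Zizyphi 0 and 0 with edgeR. At an unadjusted p under 0.05 there were 3 with Citri and 0 with Zizyphi, and DESeq2 called 1 and 0. Without the Bupleuri library 2 were called with Citri and 3 with Cimicifugae in either direction, where 22.2% and 30.2% of all genes were called. In the other 6 extracts YAP1 did not pass the test at the high dose, with log2 fold changes from −0.11 to 0.05 and edgeR adjusted p from 0.202 to 0.738. TEAD4 fell with Bupleuri (−0.25, edgeR adjusted p = 0.000319) and Aconiti (−0.24, edgeR adjusted p = 0.00108) and rose with Yijung-tang (0.24, edgeR adjusted p = 0.00293). VGLL4, a TEAD-binding repressor of YAP, was higher with Bupleuri, at 42.1 ± 2.40 CPM against 28.7 ± 1.88 CPM (edgeR adjusted p = 2.67e-11).

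Of 18 tested Hippo kinases and upstream genes (19 listed), Coptidis had 9 called higher and 5 lower, Bupleuri 1 and 7, Cimicifugae 1 and 4, Aconiti 1 and 4, Yijung-tang 0 and 4, Citri 1 and 2, and Zizyphi 0 and 0 at the high dose with edgeR. For Zizyphi, 3 had an unadjusted p under 0.05, DESeq2 called 0, and without the Bupleuri library 2 were called (10.3% of all genes). The shares called, 77.8% with Coptidis, 44.4% with Bupleuri and 16.7% with Citri, lay near those over all genes. LATS1 averaged 91.4 ± 7.98 CPM with Coptidis and 51.2 ± 1.82 CPM in vehicle (edgeR adjusted p = 8.38e-11). MAP4K4, a kinase that activates LATS1 and LATS2, fell to 465 CPM with Cimicifugae, 466 with Bupleuri, 495 with Aconiti, 460 with Yijung-tang and 547 with Citri, against 702 CPM in vehicle (edgeR adjusted p from 5.59e-11 to 5.87e-05). SAV1, the scaffold of the Hippo kinases STK3 and STK4, fell with Cimicifugae (17.1 CPM), Bupleuri (16.9), Yijung-tang (17.2) and Citri (18.5), against 21.1 CPM in vehicle (edgeR adjusted p from 4.63e-06 to 0.0122).

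AP-1 and other immediate early genes, which answer growth factor and stress signals, and the targets of SRF and its actin-regulated cofactors are often induced alongside YAP targets. Of the 10 immediate early genes, 10 were called higher with Coptidis at the high dose (median 3.31), 8 with Bupleuri (median 0.87), 7 with Aconiti, 5 with Cimicifugae, 4 with Yijung-tang, 1 with Citri and 1 with Zizyphi. Called lower were 1 each with Aconiti, Cimicifugae and Citri and 2 with Yijung-tang. Without the Bupleuri library the calls in either direction were 5 for Citri (22.2% of all genes) and 2 for Zizyphi (10.3%). FOS averaged 23.9 ± 1.68 CPM with Coptidis and 0.669 ± 0.139 CPM in vehicle (edgeR adjusted p = 4.90e-28), and EGR1 374 and 11.5 CPM (edgeR adjusted p = 2.76e-39). JUN averaged 90.3 ± 4.75 CPM with Bupleuri and 27.8 ± 2.29 CPM in vehicle (edgeR adjusted p = 2.07e-24). At the Aconiti medium dose all 10 were called higher, with a median of 0.98, where 20.9% of all tested genes were called in either direction. CCN1, AXL and ANKRD1 were also higher and AJUBA lower at that dose, and a link was not tested.

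Of 15 SRF and cytoskeleton genes, 9 were called higher and 3 lower with Coptidis, 5 and 1 with Bupleuri, 5 and 1 with Cimicifugae, 3 and 0 with Yijung-tang, 2 and 1 with Citri, and 0 and 7 with Aconiti at the high dose. Without the Bupleuri library the calls in either direction were 5 for Citri (22.2% of all genes), 6 for Yijung-tang (24.8%) and 1 for Zizyphi (10.3%). With that library Zizyphi had 0 in edgeR, 0 in DESeq2 and 3 at an unadjusted p under 0.05. FHL2, a LIM cofactor, averaged 54.9 ± 0.57 CPM with Coptidis and 7.27 ± 0.42 CPM in vehicle (edgeR adjusted p = 7.10e-30), and the actin gene ACTG1 7319 and 2080 CPM (edgeR adjusted p = 2.56e-31). TAGLN, an actin-binding protein, fell with Aconiti to 20.4 ± 1.35 CPM, against 29.9 ± 0.69 CPM in vehicle (edgeR adjusted p = 4.98e-05). At the Aconiti medium dose 8 were called higher and 1 lower, where 20.9% of all tested genes were called in either direction. Among relatives of the 7 genes, 10 of 14 were tested, and 5 were called higher and 2 lower with Coptidis, 2 and 2 with Bupleuri, 2 and 1 with Cimicifugae, 2 and 1 with Aconiti and 1 and 1 with Yijung-tang. With Citri and Zizyphi edgeR and DESeq2 called 0, and 2 and 0 had an unadjusted p under 0.05. Without the Bupleuri library 1 was called with Citri (22.2% of all genes). MERTK, a receptor of the AXL family, fell with Coptidis to 36.7 ± 0.78 CPM, against 56.6 ± 2.69 CPM in vehicle (edgeR adjusted p = 6.82e-09), and with Bupleuri to 38.9 ± 1.40 CPM (edgeR adjusted p = 2.13e-08). AMOT, the founding angiomotin, fell with Coptidis to 0.309 CPM, against 1.52 CPM in vehicle (edgeR adjusted p = 9.43e-10).

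**Figure D5:**
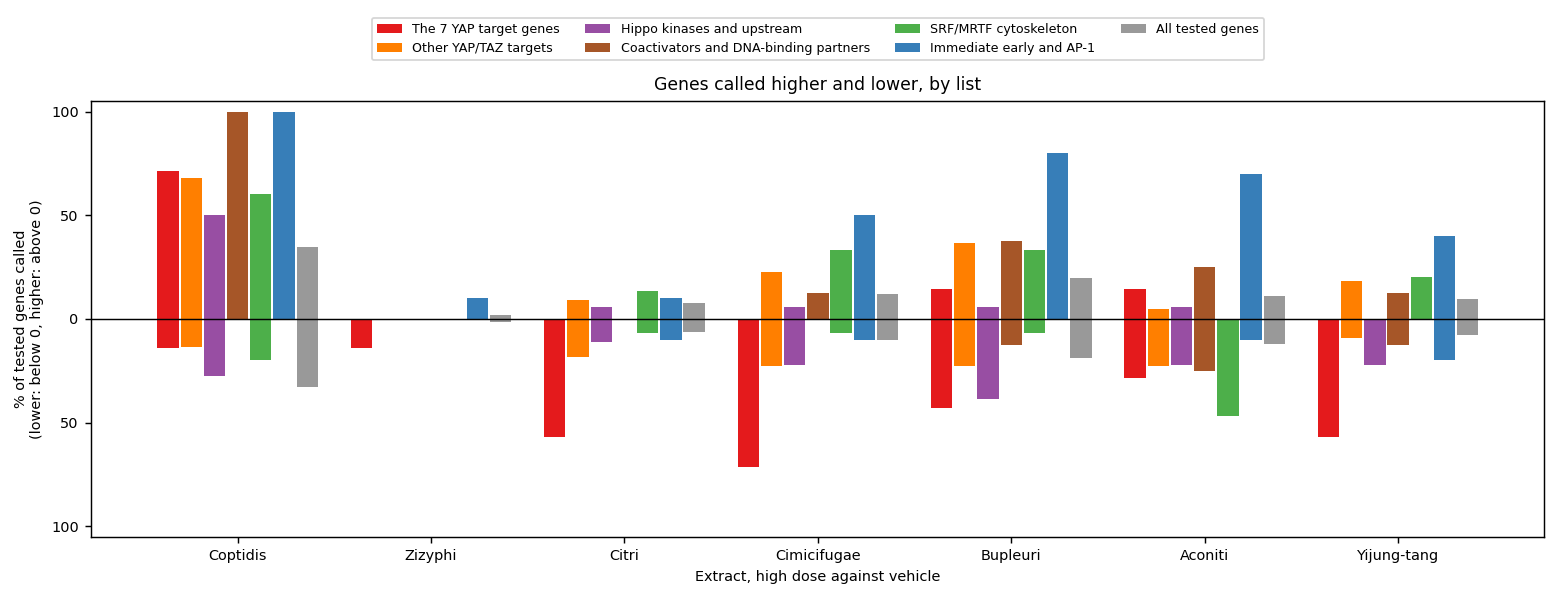
Percent of tested genes called higher (above 0) and lower (below 0) at the high dose of each extract against vehicle, for the 7 YAP target genes, 5 lists and all tested genes (grey). With Coptidis the 8 coactivators and partners and the 10 immediate early genes are all called higher, and with Citri, Cimicifugae and Yijung-tang the 7 genes are called lower only.

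Likeness between genes was read as the Pearson r of log2(CPM + 1) over group means, which share libraries, sets and vehicle, so no test was made. CCN1 and AXL were most alike, at r = 0.964 over the 25 groups and 0.800 over the 22 without Coptidis. AMOTL2 and AJUBA had 0.823 and 0.857, and AMOTL2 and LATS2 had 0.723 and 0.870. Without the Banhasasim-tang low dose, over 24 groups, these were 0.965, 0.715 and 0.481. ANKRD1 and CCN2 had r = −0.19 over 25 groups and −0.03 over 24. ANKRD1 and CCN1 had 0.611 over 25 groups, 0.376 without Coptidis, and 0.722 over the 21 groups without both.

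Among 10675 genes that averaged 5 CPM or more, the genes most like ANKRD1 over the 25 groups were FILIP1L (0.908), KRT23 (0.901), MAGI2-AS3 (0.887), TCIM (0.880) and KLHL2 (0.871). Without Coptidis they were STK17A (0.891), FAM107B (0.877), CAPRIN2 (0.871), TCIM (0.867) and DDX5 (0.866). For CCN1 they were IER3 (0.977), SMOX (0.968), TBX3 (0.968), ITPRIP (0.963) and MCL1 (0.962), and without Coptidis IER3 (0.912), SPRY4 (0.864), CEMIP (0.814), SHC1 (0.804) and DUSP6 (0.800). For CCN2 they were NR2F1 (0.822), SRSF8 (0.812), UBL7 (0.756), MCPH1-DT (0.751) and TGM2 (0.750), and without Coptidis CYGB (0.870), HOXD1 (0.829), USP2 (0.823), ACTA2 (0.796) and MATN3 (0.791). By Pearson r, TCIM for ANKRD1 and IER3 for CCN1 were the genes named both with and without Coptidis, and no gene was for CCN2. By Spearman rho over 25 groups, TCIM alone of the ANKRD1 genes was named again. IER3 and MCL1 were named again for CCN1, and NR2F1, SRSF8 and TGM2 for CCN2. SRSF8 was then named for CCN2 both with (0.832) and without (0.828) Coptidis. Without the Banhasasim-tang low dose, 3, 1 and 2 of the 5 genes over all groups were named again for ANKRD1, CCN1 and CCN2, and 1, 3 and 2 of the 5 without Coptidis.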

How the data were processed

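The authors deposited RSEM expected counts per gene, not normalized, in a table of 267 columns, of which 207 belong to no sample used here. Per the submitters' processing notes, RSEM 1.3.3, STAR 2.7.3a, Trim Galore 0.6.5 and FastQC 0.11.9 were used with GRCh38. No source used here states which annotation release. Expected counts were rounded (8.75% were not whole) and tested with edgeR 4.0.16 (TMM scaling, filterByExpr, glmQLFit with robust estimation, glmQLFTest) in R 4.3.3. The 57 libraries of 22 replicated groups were fitted together, and Benjamini-Hochberg adjustment ran over 16675 genes within each of 31 comparisons. The 7 genes, the lists, the tests and the alternatives were chosen with earlier results of these data known. Listed genes were named by a rule that takes up to 4 called genes per list and extract with the largest change, at least 1 CPM in either group and the same sign against the low dose; the coactivators, TEAD1 to TEAD4 and LATS1 could be named in any case. Banhasasim-tang was described by ratios with a prior count of 2. Gene positions and exon lengths come from GENCODE 29 on GRCh38. Replicate numbers were checked by correlating deviations of same-numbered libraries from their group means over 9477 genes. By that check they pair the libraries of Bupleuri high and low (0.130 to 0.299) and of Cimicifugae and Citri high (0.135 to 0.425) and of no other comparison with 3 pairs. The check asked for 3 pairs, so comparisons with 2 pairs were left out of it. Between high and low dose these gave 0.616 for Zizyphi, 0.34 for Coptidis and 0.159 for Yijung-tang. Coptidis against Zizyphi high gave 0.408, and those against vehicle lay between −0.207 and 0.104. The labels do not say what a number marks. Alternatives were DESeq2 1.42.0, RLE scaling, no filter, a replicate block, separate fits, leaving out libraries, another likeness measure or minimum, a prior count of 5 and a 5-letter motif. Leaving out the Banhasasim-tang low dose, and all alternatives for the comparisons between extracts, were chosen after seeing the data.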

Additional observations from a re-analysis of the deposited data

Results flagged for a closer look

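In the Coptidis and Zizyphi set, every high-dose library lay on opposite sides of its extract's low-dose libraries for 3 genes. The log2 fold change of high against low dose was 0.33 with Coptidis and −0.16 with Zizyphi for ANKRD1, 2.67 and −0.17 for CCN1, and 0.47 and −0.045 for AJUBA. With 2 libraries per dose, the Zizyphi changes were small and not called. In the Bupleuri and Aconiti set the same held for 2 genes, with 0.94 for Bupleuri and −0.34 for Aconiti in ANKRD1, and −1.38 and 0.19 in CCN2. The difference between the extracts was not tested.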

How the results depend on the processing

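No called value changed sign under any alternative run. Counts of the 7 genes called that moved by over 1.5 times were as follows. Without a filter, Zizyphi high gave 0 in place of 1, Citri low 1 in place of 2, Aconiti high 1 in place of 3, Yijung-tang medium 0 in place of 2, Aconiti high against low 3 in place of 5, and Cimicifugae against Citri high 0 in place of 3. Without a filter 33853 genes were tested and the share called over all genes was 2.53%, 6.23%, 10.6%, 3.28%, 6.46% and 1.97% in these comparisons. In separate fits, Zizyphi high gave 2 in place of 1, Cimicifugae low 3 in place of 1, Bupleuri medium 0 in place of 1, Aconiti low 2 in place of 1 and Yijung-tang low 1 in place of 0, with 12.2%, 18.9%, 1.29%, 23.8% and 12.4% of all genes called. DESeq2 gave 2 for Cimicifugae low and 2 for Aconiti low (6.99% and 10.6% of all genes), and RLE scaling gave 1 for Yijung-tang medium (6.28%). Without Bupleuri low replicate 3 in the fit, Zizyphi high gave 2, Cimicifugae low 3, Aconiti low 2 and Zizyphi high against low 1, with 10.3%, 13.1%, 17.6% and 0.018% of all genes called. Leaving out a library of the compared groups gave 0 to 1 for Zizyphi high (0 without vehicle 1 or 2 or either treated library), 1 to 1 for Citri low (each of its 6 libraries), and 0 to 1 for Bupleuri medium (0 without vehicle 3 or Bupleuri medium 1 or 3). It gave 0 to 1 for Bupleuri low (1 without replicate 1), 1 to 3 for Aconiti high and 3 to 5 for Aconiti high against low (1 and 3 without Aconiti high replicate 3), 0 to 1 for Yijung-tang medium (each of its 5 libraries), and 0 to 1 for Cimicifugae against Citri high (each of its 6 libraries). The share called over all genes was not recorded for the fits without 1 library, and the cause was not tested. With the replicate block, CCN1 was also called in Bupleuri high against low (0.19), where the numbers pair the libraries, and no other call of the 7 genes changed in the 31 comparisons. Among the lists, the coactivators called became 2 in place of 1 in Aconiti high against low, where they do not pair them, and 2 in place of 1 in Cimicifugae against Citri high, where they do. CPM by library total moved medians by at most 0.098 on the log2 scale. With the 5-letter GGAAT, 41.1% of genes had a promoter match, and 6 of the 6 members in the table had one.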
